A study of Mus musculus with 12 samples.

Results

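The IL-17, IL-22 and IL-23 axis was followed in the injured mouse cecum through 8 genes. They encode the cytokines IL-17A (Il17a), IL-17F (Il17f) and IL-22 (Il22), the p19 subunit of IL-23 (Il23a), and the receptor subunits Il23r, Il17ra, Il17rc and Il22ra1. The genes were chosen by name. They are 8 of 37074 gene names on the array and were measured by 12 of its 56605 non-control probes. RNA came from ceca of C57BL/6 (B6) mice, the strain given in the study's methods, with 3 arrays in each of 4 groups. One group had a sham operation, sampled at 0 h by the methods, and the others were sampled 3, 12 or 72 h after bipolar cauterization of the cecum, a model of postoperative adhesion. The sources used here name no engineered allele in any of these groups, and the methods name pentobarbital sodium as the anesthetic of the cauterized mice. The authors hybridised Cy3-labelled cRNA to 1-colour Agilent arrays and deposited the background-corrected intensity of each spot. A level is given here as the log2 of that intensity after dividing by the array's own 75th percentile, so that a level of 0 is the brightness at that percentile.

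On every array between 60.2% and 65.2% of probes exceeded background by the criterion of the Feature Extraction software, called well above background here. The sham and 3 h arrays lay on the first slide and the 72 h arrays on the second, while 12 h replicates 1 and 2 lay on the first and replicate 3 on the second. In a fit with the slide as a block, each comparison of 72 h with sham or 3 h therefore rests on the few 12 h arrays that join the slides. The labels call all mice male, yet Xist, which is transcribed from the inactive X chromosome of females, was well above background on 12 of 12 arrays. The Y-linked genes Ddx3y and Eif2s3y were so on 0 arrays, Uty on 1, and Kdm5d through its brightest probe on 12. As a check of the tissue label, all 15 epithelial and all 8 smooth muscle markers were well above background on all 12 arrays, as were all 12 T cell markers. In RNA of whole tissue, fewer cells of a type and less RNA per cell cannot be told apart.

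IL-23 is made chiefly by dendritic cells and macrophages and is a dimer of p19 with p40, the product of Il12b. It acts through Il23r and Il12rb1 on lymphocytes of the type 17 kind, such as Th17 cells, γδ T cells and group 3 innate lymphoid cells, which release IL-17A, IL-17F and IL-22. IL-17 signals through Il17ra and Il17rc to induce neutrophil chemokines in epithelial and stromal cells, and IL-22 signals through Il22ra1 and Il10rb to induce antimicrobial proteins and repair genes in gut epithelium.

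The probes that measured the cytokines are shown by the first 30 of their 60 bases, since the results turn on what these probes bound.
Il22, the first probe (A_52_P177054): gaaaatagtgtcaagttgtccatgagacca
Il22, the second probe (A_55_P2199202): agccctacatgcaggaggtggtgcctttcc
Il17a (A_55_P2156697): gctttactatttgtttatttaaggttctct
Il17f (A_51_P519301): tgtcccacgtgaattccagaaccgctccag
Il23a (A_52_P649817): tgataagactaatctatcagcccagacatc
In mm9, the build of the deposited files, the Il22 probes lie at chr10:117646736-117646795 and chr10:117642873-117642932. The Il17a probe lies at chr1:20724404-20724463, the Il23a probe at chr10:127733766-127733825, and the Il17f probe spans chr1:20768074-20769419, a stretch longer than the probe itself. Exons were not assigned, since no annotation of this build was used here. Some mouse strains, C57BL/6 among them, carry a near-identical second copy of Il22, Iltifb, so that the Il22 probes may also report the copy. The array's own probe for Iltifb shared runs of at most 6 and 5 bases with the Il22 probes and was well above background on 0 of 12 arrays. Probes were compared with each other and not with transcripts, so whether the Il22 probes also bound the copy was not tested.

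Against sham, 4 of the 8 genes were called higher and 0 lower at 3 h, where a call means a fold change over 2 together with a limma adjusted p under 0.05. They were Il22, Il23a, Il17a and Il17f, beside 3.17% of all 37074 genes called higher and 4.25% called lower at that time. At 12 h, 5 of 8 were called higher and 0 lower, the same cytokines and Il17ra, beside 3.95% of all genes higher and 5.35% lower. At 72 h, 3 of 8 were called higher and 0 lower, namely Il17a, Il23a and Il17ra, beside 4.51% of all genes higher and 4.39% lower. The median log2 change of the 8 genes was 1.59, 1.69 and 0.68 at these times, against 0.06, -0.04 and -0.15 over all genes. From 3 h to 12 h, 0 of 8 were called by limma, with 3 at an unadjusted p below 0.05, beside 1.83% of all genes called higher and 1.63% lower. The 3 comparisons with sham share the 3 sham arrays.

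Il22 had the largest fitted change of the 8 genes at 3 h and fell back by 72 h. By the first probe the sham arrays read -7.12, -5.57 and -3.28, the 3 h arrays 0.56, 2.49 and 2.74, the 12 h arrays 0.10, -0.84 and -0.07, and the 72 h arrays -2.79, -4.59 and -6.29. All 3 h and 12 h arrays were above all sham arrays, and the 72 h arrays overlapped with sham. The log2 change from sham was 7.25 ± 1.06 (SE, limma adjusted p = 0.00149) at 3 h, which ranked 17 from the top among 37074 genes. It was 5.05 ± 1.06 (adjusted p = 0.0074) at 12 h and 0.77 ± 1.06 (adjusted p = 0.639, 95% interval -1.59 to 3.12) at 72 h. The first probe was well above background on 1 of 3 sham arrays and on 2 of 3 at 72 h, so that the means of these groups rest in part on dim signal.

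The second Il22 probe was well above background on 12 of 12 arrays and gave the same course with smaller changes. It read -5.39, -4.85 and -4.28 in sham, and the 3 h arrays were at -1.27, 0.76 and 0.93, the 12 h arrays at -1.83, -2.51 and -1.60, and the 72 h arrays at -4.04, -4.68 and -5.30. Again the 3 h and 12 h arrays stood above sham without overlap and the 72 h arrays did not. The change from sham was 4.98 ± 0.57 (adjusted p = 0.000423) at 3 h, 2.86 ± 0.57 (adjusted p = 0.00567) at 12 h and 0.17 ± 0.57 (adjusted p = 0.854, 95% interval -1.10 to 1.44) at 72 h. The fall between 3 h and 12 h, -2.12 ± 0.57, was called by this probe (adjusted p = 0.0464) and not by the first, at -2.20 ± 1.06 (adjusted p = 0.229).

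Between 12 h and 72 h both Il22 probes were called lower, by -4.29 ± 1.06 (adjusted p = 0.0205) and -2.69 ± 0.57 (adjusted p = 0.0104). Il22 was 1 of 8 genes called lower between these times and 0 were called higher, beside 2.92% and 4.51% of all genes. The call of the first probe was lost without 12 h replicate 1 or 3 or without 72 h replicate 2 or 3, with changes of -4.27 to -3.42 and adjusted p from 0.0503 to 0.066. Neither probe was called with the slide as a block, at -4.49 (adjusted p = 0.163) and -3.07 (adjusted p = 0.0802), and the second slide holds 1 array at 12 h, too few for a test within it.

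Il17a was not detected in sham and had its highest mean at 72 h. The sham arrays read -7.18, -7.69 and -7.50, none of them well above background. The 3 h arrays read -4.90, -3.81 and -3.06, the 12 h arrays -0.98, -2.89 and -4.18, and the 72 h arrays -1.81, -1.51 and -2.24, all of them well above background. Each cauterized array lay above each sham array, and the 12 h arrays spread most widely. Il17a was at least 3.04-fold higher than sham at 3 h (adjusted p = 0.00675), at least 7.16-fold higher at 12 h (adjusted p = 0.00109) and at least 12.7-fold higher at 72 h (adjusted p = 0.000627). Such a bound sets the mean of the brighter group against sham arrays raised to their lowest signal among probes well above background, all as means of normalised log2 values. The fitted log2 changes of 3.53, 4.77 and 5.60 ± 0.70 use the dim sham values themselves. An adjusted p printed beside such a bound, here and below, is that of the fitted change and not of the bound. Each bound holds for this floor alone and makes no allowance for the spread between arrays, so it is no guaranteed minimum. Another background correction, given below, put changes of Il17a, Il17f and Il23a under their bounds.

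The courses of Il17a and Il22 parted between 3 h and 72 h. Of the 8 genes, 1 was called higher at 72 h than at 3 h and 3 lower, beside 6.26% and 5.34% of all genes. Il17a was higher by 2.07 ± 0.70 (adjusted p = 0.0439), and Il22 was lower by -6.49 ± 1.06 (adjusted p = 0.00156) through the first probe and -4.81 ± 0.57 (adjusted p = 0.000315) through the second. The Il17a call is a narrow one. It was lost when any 1 of the sham or 72 h arrays, 3 h replicate 1 or 2 or 12 h replicate 2 was left out, with changes from 1.58 to 2.26 and adjusted p from 0.0567 to 0.13. With the slide as a block, the difference was 4.31 (adjusted p = 0.0529) for Il17a, -6.79 (adjusted p = 0.0916) for the first Il22 probe and -5.38 (adjusted p = 0.0352) for the second.

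Il17f, the neighbour of Il17a on chromosome 1 and its dimer partner as a protein, rose early and was not called at 72 h. The sham arrays read -5.99, -6.46 and -6.03, the 3 h arrays -4.75, -2.86 and -2.88, the 12 h arrays -3.27, -4.42 and -5.03, and the 72 h arrays -4.68, -6.06 and -5.98. The probe was well above background on 0 sham arrays, on all 3 h and 12 h arrays, and on 1 of 3 at 72 h, replicate 1. Il17f was at least 4.09-fold higher than sham at 3 h (adjusted p = 0.0123) and at least 2.44-fold higher at 12 h (adjusted p = 0.0445). The 12 h call was lost when any 1 sham array, 12 h replicate 1 or 2 or 72 h replicate 2 or 3 was left out, with log2 changes of 1.44 to 2.01 and adjusted p from 0.0549 to 0.153.

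At 72 h the fitted log2 change of Il17f was 0.59 ± 0.60 (adjusted p = 0.526). It was lower at 72 h than at 3 h by -2.08 ± 0.60 (adjusted p = 0.0255). This call was lost without 3 h replicate 2 or 3 or without 72 h replicate 2 or 3 (-1.87 to -1.76, adjusted p from 0.0671 to 0.087), and with the slide as a block the difference was -0.89 (adjusted p = 0.632).

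Il23a, the p19 subunit, was raised at all 3 times. The sham arrays read -7.58, -7.84 and -7.70 with none well above background, the 3 h arrays -4.76, -1.92 and -4.58, the 12 h arrays -2.68, -3.87 and -4.01, and the 72 h arrays -4.70, -4.57 and -4.54. At 3 h replicate 2 was far brighter than the others, whereas the 72 h arrays were close together (SD 0.0853). Il23a was at least 3.43-fold higher than sham at 3 h (adjusted p = 0.00258), at least 4.01-fold at 12 h (adjusted p = 0.00143) and at least 1.90-fold at 72 h (adjusted p = 0.00801). No difference between the cauterized groups was called, with -0.85 ± 0.64 (95% interval -2.29 to 0.58) from 3 h to 72 h. With the slide as a block the change at 72 h was 3.84 (adjusted p = 0.125), and with values raised to a floor at the lowest signal well above background it was 0.92 (adjusted p = 0.361), neither of them called. Of 12 markers of myeloid and dendritic cells, which make IL-23, Cd14 was called higher and Cx3cr1 lower at 3 h, 3 were higher and 2 lower at 12 h, while by 72 h 4 were higher and 0 lower. Their part in the change of Il23a was not tested.

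Il12b, which encodes the p40 subunit that IL-23 shares with IL-12, was raised on a part of the 3 h arrays. The sham arrays read -4.91, -4.86 and -4.81, the 3 h arrays -4.58, -2.34 and -2.86, the 12 h arrays -4.82, -4.80 and -4.73, and the 72 h arrays -4.83, -4.81 and -5.20. Replicates 2 and 3 at 3 h stood apart, and replicate 1 was near the sham arrays. The change was 1.60 ± 0.44 at 3 h (adjusted p = 0.0307), 0.08 ± 0.44 at 12 h (adjusted p = 0.984) and -0.09 ± 0.44 at 72 h (adjusted p = 0.905). The 3 h call was lost without any 1 sham array or without 3 h replicate 2 or 3 (1.14 to 1.63, adjusted p from 0.0636 to 0.0971). Between 3 h and 72 h Il12b fell by 1.69 ± 0.44 (adjusted p = 0.0167), lost without 3 h replicate 2 or 3 or 72 h replicate 3 (adjusted p from 0.0506 to 0.0564). Unlike p40, p19 was thus called higher than sham at 12 h and 72 h as well.

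**Figure D1:**
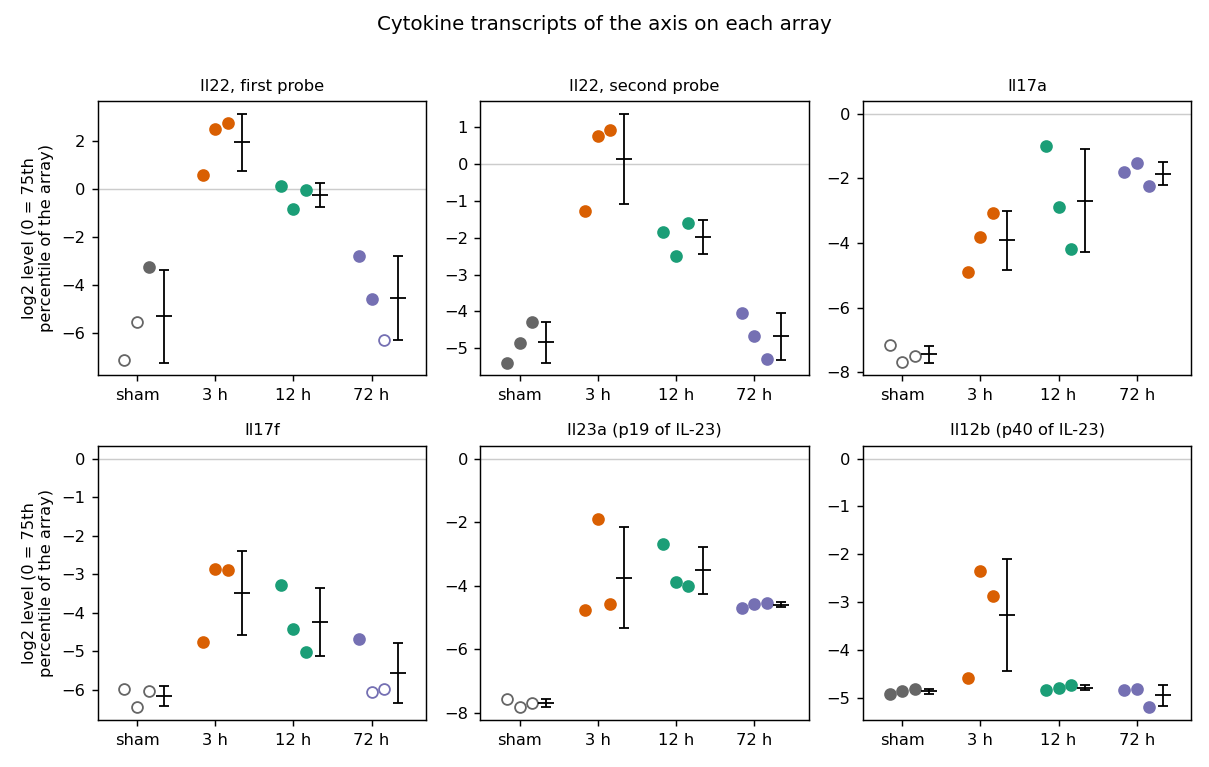
Log2 level (0 is the 75th percentile of the array) of the cytokine probes on each of the 12 arrays, by group; filled points are well above background, open points are not, and the bar is the mean ± SD of 3 arrays. Il22 was highest at 3 h by both probes, Il17a had its highest mean at 72 h (-1.85), and Il12b was raised on replicates 2 and 3 at 3 h.

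Replicate 1 was the lowest of the 3 h arrays for Il22 by both probes, Il17a, Il17f, Il23a and Il12b. The mean log2 level of the 12 T cell markers was also lowest there, at -0.996 against -0.554 and 0.0559 on replicates 2 and 3. The same held for the 16 type 17 lymphocyte genes (-1.51 against -1.05 and -0.62) and for 16 neutrophil markers (0.77 against 1.49 and 1.49). It was not particular to these lists. Mesothelial markers (-1.49 against -0.31 and -0.48) and smooth muscle markers (3.01 against 3.27 and 3.23) were lowest there too. So were myeloid and dendritic cell markers (-0.31 against 0.17 and 0.01), while epithelial markers were not (6.39 against 6.40 and 6.35). Their part in the cytokine values was not tested. Without this array the same 4 cytokines were called at 3 h, with log2 changes of 7.94 for Il22, 4.46 for Il23a, 4.02 for Il17a and 3.29 for Il17f.

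The sizes of the changes of the dim cytokines depended on how background was handled. With normexp background correction and an offset of 50, which compresses dim signals, Il22 stayed called at 3 h (4.08, adjusted p = 0.000213). Il17a (0.45, adjusted p = 0.275), Il17f (0.57, adjusted p = 0.0146) and Il23a (0.63, adjusted p = 0.0694) were not called at 3 h by this correction. At 12 h it called Il22 alone of the 8 genes, and at 72 h Il17a was called (1.09, adjusted p = 0.00668) while Il23a was not (0.07, adjusted p = 0.790). With values raised to a floor at the lowest signal well above background, the changes at 3 h were 1.60 for Il17a (adjusted p = 0.0631) and 1.78 for Il23a (adjusted p = 0.0615). Within the first slide alone, an alternative chosen after the data were seen, 4 genes were called at 3 h and 5 at 12 h. All sham and 3 h arrays lie on that slide, so the 3 h changes are the same there and only their estimated spread could differ. The 12 h group there is replicates 1 and 2.

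**Figure D2:**
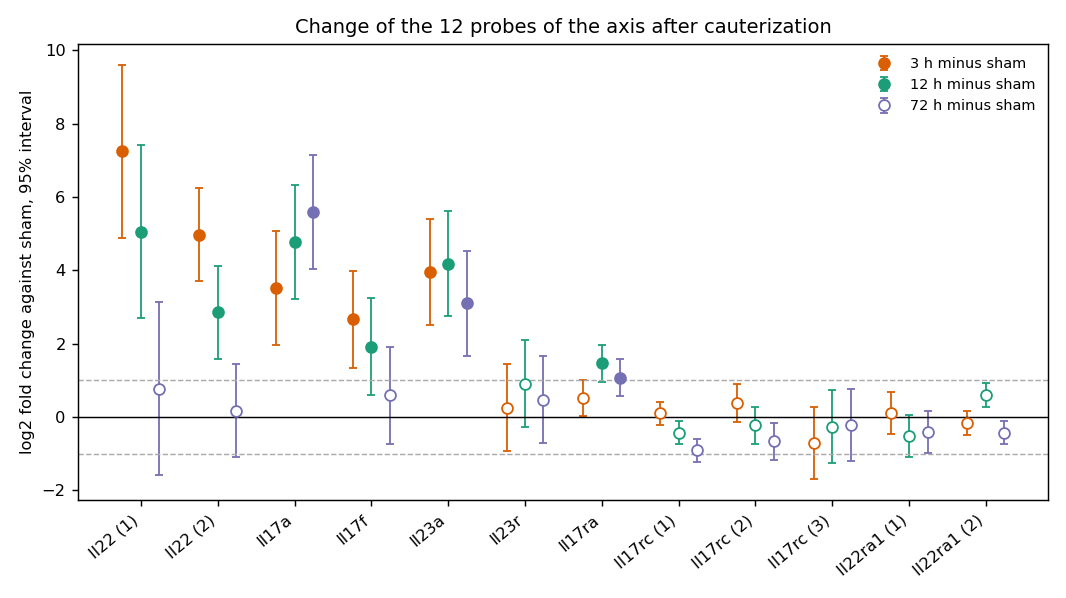
Log2 fold change against sham of the 12 probes of the 8 genes at 3, 12 and 72 h with the 95% interval from limma (3 arrays per group); filled points are called, and the dashed lines mark a fold of 2 in either direction. The cytokines and Il17ra were called at 1 or more times, and no probe of Il17rc, Il22ra1 or Il23r was.

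The start regions of Il17a, Il17f and Il22 are shown because these genes rose together at 3 h. RefSeq windows of 250 bases before to 50 after the gene start (GRCm38.p6, another build than that of the probes) were matched for 6 of the 8 genes, not for Il23a and Il17ra. The 250 bases before Il17a (chr1:20730655-20730904, plus strand) are printed with capitals marking TATAAA and a minus-strand match to AGGTCA, a half-site of nuclear receptors. For Il17f (chr1:20784282-20784311, minus strand) and Il22 (chr10:118204782-118204811, plus strand), 30 bases around TATAAA are shown, with TATAAA in capitals.
Il17a: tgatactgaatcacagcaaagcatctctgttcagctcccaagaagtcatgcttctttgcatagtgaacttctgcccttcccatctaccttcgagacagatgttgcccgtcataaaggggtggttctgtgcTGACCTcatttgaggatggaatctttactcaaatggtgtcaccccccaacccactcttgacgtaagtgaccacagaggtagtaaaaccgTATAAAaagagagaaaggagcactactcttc
Il17f: gacagtgattgcTATAAAactgacaggtac
Il22: tgtcccgatggcTATAAAagcagcaacttc
TATAAA begins 31 bases before the start of Il17a, 29 before that of Il17f and 170 before the annotated start of Il22. Searched on both strands of all 32851 windows, TATAAA was present in 13.6%, and in those of Il17a, Il17f and Il22 among the 6. AGGTCA was present in 16.3% of all windows and in those of Il17a, Il17f and Il23r, with 1, 1 and 2 matches. TGANTCA, an AP-1 site, was present in 7.81% of all windows and in those of Il17a (244 bases before the start) and Il22ra1, and TTCNNNGAA, a STAT site, in 8.3% and in 0 of the 6. No match overlapped another in these 6 windows. A match describes the letters of the window, and binding was not measured.

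Il17ra, the subunit shared by the IL-17 receptors, was the one receptor gene of the 8 called higher than sham. The sham arrays read -2.02, -2.16 and -2.22, the 3 h arrays -1.91, -1.71 and -1.25, the 12 h arrays -0.53, -0.69 and -0.80, and the 72 h arrays -0.67, -1.51 and -1.01, well above background throughout. The sham arrays were close together (SD 0.101) and below all others. The change from sham was 0.51 ± 0.22 at 3 h (adjusted p = 0.140), 1.46 ± 0.22 at 12 h (adjusted p = 0.00133) and 1.07 ± 0.22 at 72 h (adjusted p = 0.00791). Between 3 h and 12 h the difference was 0.95 ± 0.22 (adjusted p = 0.0278), just under the fold threshold. Without 72 h replicate 1 the change at 72 h was 0.88 (adjusted p = 0.0268), and with the slide as a block 1.26 (adjusted p = 0.142), neither of them called.

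Il17rc, the subunit that pairs with Il17ra for IL-17A and IL-17F, was lowest at 72 h. By its brightest probe (A_52_P143976, chr6:113433065-113433124) the sham arrays read 4.56, 4.75 and 4.57, the 3 h arrays 4.91, 4.74 and 4.55, the 12 h arrays 4.15, 4.36 and 4.08, and the 72 h arrays 3.52, 3.73 and 3.91. The 72 h arrays were below all others. Against sham the change was 0.10 ± 0.14 at 3 h (adjusted p = 0.640), -0.43 ± 0.14 at 12 h (adjusted p = 0.0546) and -0.91 ± 0.14 at 72 h (adjusted p = 0.00192), none of them past a fold of 2. The difference of 72 h from 3 h was called at -1.01 ± 0.14 (adjusted p = 0.000686), close to the fold threshold. It fell short of it at -0.92 without 3 h replicate 1, at -0.91 without 72 h replicate 1, at -0.64 with quantile normalization, at -0.84 with the slide as a block (adjusted p = 0.0916) and at -0.53 in the mean of all 3 probes.

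The second Il17rc probe (A_51_P519617) was dimmer, from -3.17 to -1.48 over the 12 arrays. It changed by -0.67 ± 0.23 against sham at 72 h (adjusted p = 0.0683) and by -1.05 ± 0.23 against 3 h (adjusted p = 0.00719), the latter called. The third (A_66_P116502), placed on the minus strand of mm9 while the others are on the plus strand, was well above background on 8 of 12 arrays and changed by -0.71 to -0.22 against sham, with no call. At 72 h against 3 h this dim probe changed by 0.49 ± 0.45 (limma adjusted p = 0.418), opposite in sign to the others, and it enters the mean of all 3 probes. From 3 h to 72 h, 8 of 15 epithelial markers were called lower and 0 higher, and the range of their summed level, in multiples of the 75th percentile, was 2131 to 2326 at 3 h and 953 to 1265 at 72 h, against 1728 to 1834 in sham and 1569 to 1894 at 12 h. Their part in the course of Il17rc was not tested.

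Il22ra1, the epithelial receptor subunit for IL-22, was not called at any time against sham. The brighter probe (A_55_P2825279, chr4:135308423-135308482) read 1.73, 1.33 and 0.78 in sham, while the 3 h arrays were at 1.24, 1.64 and 1.27, the 12 h arrays at 0.66, 0.61 and 1.04, and the 72 h arrays at 0.50, 1.19 and 0.89, so that each group overlapped with sham. Its changes from sham were 0.10, -0.51 and -0.42 ± 0.26, with 95% intervals of -0.47 to 0.67, -1.08 to 0.06 and -0.99 to 0.15. The second probe (A_66_P103311) disagreed at 12 h, where it lay at -3.37, -3.19 and -3.25 against -3.59, -4.04 and -3.98 in sham, a change of 0.60 ± 0.15 (adjusted p = 0.0154) under a fold of 2. Between 12 h and 72 h it fell by 1.02 ± 0.15 (adjusted p = 0.00155). The direction at 12 h thus differed between the probes.

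Il23r, the specific IL-23 receptor subunit, was near the limit of the array. Its probe was well above background on 1 of 12 arrays, 12 h replicate 1, at -4.79, and the others ranged from -7.64 to -5.38. No comparison was called, and the 95% interval of the change from sham was -0.93 to 1.44 at 3 h, -0.28 to 2.10 at 12 h and -0.71 to 1.66 at 72 h.

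The partner subunits moved in separate ways. Il12rb1, the partner of Il23r, read -2.39, -2.31 and -2.05 in sham, while the 3 h arrays were at -3.08, -3.03 and -2.88, the 12 h arrays at -2.00, -2.13 and -1.85, and the 72 h arrays at -2.36, -2.60 and -2.16. The 3 h arrays were below all others (-0.75 ± 0.14 against sham, adjusted p = 0.00586, under a fold of 2). The difference of 12 h from 3 h lay on the fold threshold, and was 0.97 without 3 h replicate 1 and 0.93 without 12 h replicate 3. Il10rb, the partner of Il22ra1, was bright on all arrays, from 3.01 to 3.77, and its change at 12 h was 0.42 ± 0.12 (adjusted p = 0.0383).

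Il22ra2, which encodes a soluble decoy receptor that binds IL-22, was called lower at 72 h. The sham arrays read 0.93, 0.43 and 0.94, the 3 h arrays -1.19, 0.91 and 1.13, the 12 h arrays -0.18, -1.33 and -0.33, and the 72 h arrays -2.09, -2.27 and -0.61. The 12 h and 72 h arrays were all below sham, and 3 h replicate 1 stood apart from the other 3 h arrays. The change from sham was -0.49 ± 0.63 at 3 h (adjusted p = 0.620), -1.38 ± 0.63 at 12 h (adjusted p = 0.158) and -2.42 ± 0.63 at 72 h (adjusted p = 0.0224). The 72 h call was lost without sham replicate 1 or 3 or without 72 h replicate 1 or 2 (-2.34 to -2.11, adjusted p from 0.0604 to 0.0765).

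**Figure D3:**
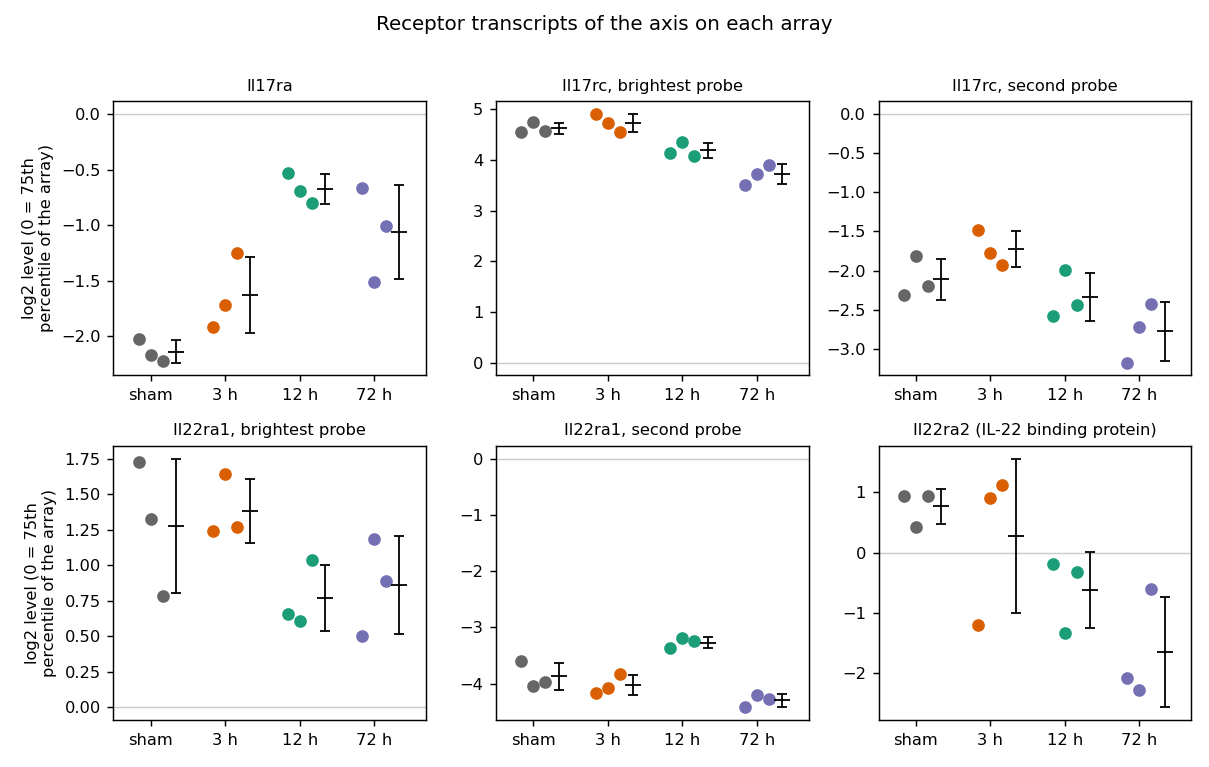
Log2 level (0 is the 75th percentile of the array) of receptor probes on each of the 12 arrays, by group; filled points are well above background, and the bar is the mean ± SD of 3 arrays. Il17ra was above all sham arrays at 12 h and 72 h, Il17rc had its lowest mean at 72 h by both probes shown, the probes of Il22ra1 differed at 12 h, and Il22ra2 was below sham at 12 h and 72 h.

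Of the other IL-17 family cytokines, Il17d was well above background on 12 of 12 arrays, with changes from sham of 0.01, 0.06 and -0.22 ± 0.14 and no call. Il17b, Il17c and Il25 were so on 0 arrays, so that their fitted changes are those of signal not well above background. Il17c was called higher at 3 h (1.75 ± 0.20, limma adjusted p = 0.000452) and 12 h (1.35 ± 0.20, adjusted p = 0.00124). Il17b was called higher at 72 h (1.16 ± 0.30, adjusted p = 0.0223), and Il25 was not called. Il17rb, a receptor subunit for Il25, was called lower at 72 h by 2 of its 3 probes, at -1.19 ± 0.16 (adjusted p = 0.00107) and -1.30 ± 0.18 (adjusted p = 0.000966), and the third was well above background on 0 arrays. The first of these was -1.33 (adjusted p = 0.0527) with the slide as a block. Il17re, the receptor subunit for Il17c, changed by -0.85, -0.92 and -0.63 ± 0.18 (adjusted p = 0.00939, 0.00509 and 0.032), each short of a fold of 2. The 3 probes of Il17rd, a modulator of IL-17 and FGF signalling, disagreed, since one was called lower at 3 h (-1.09 ± 0.16, adjusted p = 0.00176), another at 72 h (-1.21 ± 0.23, adjusted p = 0.00496) and the brightest at no time.

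Of 8 cytokines that induce the type 17 response, 3 were called higher at 3 h, 4 at 12 h and 4 at 72 h, and 1 was called lower at 12 h. The median log2 changes of the list were 0.86, 0.71 and 0.89. Il6 read -4.84, -5.51 and -5.14 in sham and between 0.42 and 2.61 on the 9 other arrays, with changes of 7.59, 6.72 and 7.19 ± 0.45. Il1b changed by 6.72, 8.32 and 7.35 ± 0.41 (adjusted p at most 1.41e-05). Il1a was not well above background in sham and was at least 14.2-fold, 44.1-fold and 18.4-fold higher. Tgfb1 rose by 1.18 ± 0.18 at 12 h (adjusted p = 0.00149) and 1.13 ± 0.18 at 72 h (adjusted p = 0.0023), where it was 0.97 without sham replicate 2. Tgfb3 was called lower at 12 h (-1.02 ± 0.20, adjusted p = 0.00554), and was at -0.99 to -0.89 without sham replicate 3 or without 12 h replicate 1 or 2. Il21, an amplifier of Th17 cells, was not called, at 0.26, -0.01 and -0.55 ± 0.24.

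Of the 12 T cell markers, 0 were called higher at any of the 3 times and 1 was called lower, Cd5 at 3 h, at -1.50 ± 0.46 (adjusted p = 0.0471). The Cd5 call was lost without any 1 sham array, any 72 h array, 3 h replicate 1 or 2 or 12 h replicate 1 or 3 (adjusted p from 0.052 to 0.122). The median log2 change of the list was -0.36, 0.09 and -0.41, and Cd3e, a chain of the T cell receptor complex, changed by -0.13, 0.19 and -0.42 ± 0.24.

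Of the 16 type 17 lymphocyte genes, 2 were called higher at both 3 h and 12 h and 5 at 72 h, with 0 lower and medians of -0.18, -0.06 and 0.22. Batf, a transcription factor required by Th17 cells, changed by 1.98, 3.06 and 1.92 ± 0.47, and Gpr65, an acid-sensing receptor, by 1.08, 1.18 and 1.75 ± 0.18. The early and late Batf calls were lost without sham replicate 2 (1.74, adjusted p = 0.0628, and 1.67, adjusted p = 0.0681), without 3 h replicate 3 (1.66, adjusted p = 0.0581) and without 72 h replicate 3 (1.63, adjusted p = 0.0605), respectively. Gpr65 at 3 h was under the fold threshold without 3 h replicate 3 (0.97) or sham replicate 2. At 72 h they were joined by Cd163l1 (1.69 ± 0.33, adjusted p = 0.00596), a marker of IL-17-producing γδ T cells, Il1r1 (1.38 ± 0.22, adjusted p = 0.00242) and Maf (1.18 ± 0.21, adjusted p = 0.0038). Batf, Il1r1 and Maf are also used by other cells. With the slide as a block, Cd163l1 (adjusted p = 0.245), Il1r1 (adjusted p = 0.0831) and Maf (adjusted p = 0.284) were not called, and 1 of 16 was.

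Downstream of the receptors, 6 of 19 genes of IL-17 signalling were called higher at 3 h, 6 at 12 h and 5 at 72 h, and 0 lower. The adaptors were not called, with Traf3ip2 (Act1) at 0.34, 0.26 and -0.22 ± 0.10 and Traf6 at -0.04, -0.03 and -0.24 ± 0.18. The transcription factors Cebpd (3.36, 2.56 and 2.0 ± 0.17) and Cebpb (2.5, 3.22 and 2.85 ± 0.23) were called at all 3 times. So were Nfkbiz (2.29, 2.72 and 1.31 ± 0.30), the feedback inhibitor Zc3h12a (2.37, 2.73 and 1.53 ± 0.24) and the feedback inhibitor Tnfaip3 (2.69, 3.07 and 1.53 ± 0.38). The last of these values of Tnfaip3 was 1.47 (adjusted p = 0.0618) without sham replicate 2 and 1.17 (adjusted p = 0.0582) without 72 h replicate 3. With the slide as a block these last 3 genes were not called at 72 h, which left 2 of 19 called.

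Of the 8 genes of IL-23 and IL-22 receptor signalling, 3 were called higher at 3 h, 4 at 12 h and 1 at 72 h, and 0 lower. Socs3, the feedback inhibitor of STAT3, changed by 4.38, 4.14 and 3.17 ± 0.36. Socs1 rose by 1.71 ± 0.20 at 3 h and 1.55 ± 0.20 at 12 h, and Stat3 by 1.26 ± 0.11 at 3 h. Leaving out 3 h replicate 1 gave 5 calls at 3 h, and leaving out 12 h replicate 1 gave 2 at 12 h.

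Of 22 known IL-17 target genes, 17 were called higher at 3 h, 19 at 12 h and 17 at 72 h, and 0 lower, with median log2 changes of 3.85, 3.99 and 3.63. The list shares Cebpd, Nfkbiz and Zc3h12a with that of IL-17 signalling and Il6 with the inducing cytokines, so these counts are not separate. Among the neutrophil chemokines, Cxcl1 changed by 8.56, 7.93 and 7.15 ± 0.37, Cxcl5 by 7.68, 8.54 and 8.42 ± 0.33, and Cxcl2 was at least 291-fold, 907-fold and 276-fold higher than sham. Csf3, which encodes the neutrophil growth factor G-CSF, was at least 32.2-fold, 73.9-fold and 10.9-fold higher. Ccl20, the chemokine that attracts Ccr6-bearing Th17 cells, was not called, at -0.02, -0.17 and -1.10 ± 0.65. Between 12 h and 72 h, 8 of 22 were called lower and 0 higher, Csf3 by -2.76 ± 0.48 (adjusted p = 0.00414).

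Many of these genes also respond to other cytokines, and neutrophil markers moved with them. Of 16 neutrophil markers, 10, 13 and 11 were called higher and 0 lower, and their mean log2 level ran from -3.48 to -2.81 in sham, 0.77 to 1.49 at 3 h, 2.26 to 2.65 at 12 h and 0.87 to 1.91 at 72 h. The defining marker Ly6g rose by 3.59 ± 0.55 at 3 h and 3.61 ± 0.55 at 12 h and was at -0.09 ± 0.55 at 72 h. Mmp9, S100a8 and S100a9 stand in both lists, and without them 15, 16 and 14 of 19 IL-17 targets were called higher. Only these shared genes were taken out, and other targets that neutrophils express may remain. The part of neutrophil RNA in these changes was not tested.

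Of the 20 IL-22 targets of epithelium, 12 were called higher at 3 h, 16 at 12 h and 8 at 72 h, and the median log2 changes were 1.68, 3.11 and 1.04. One was called lower, Sprr1a at 72 h (-2.44 ± 0.35, adjusted p = 0.00119), a gene of the cornified envelope. Reg3g, an antimicrobial lectin, read -1.05, 2.76 and 2.29 in sham, while the 3 h arrays were at 1.77, 3.00 and 2.89, the 12 h arrays at 5.38, 5.44 and 4.71, and the 72 h arrays at 2.96, 4.15 and 2.30. The 12 h arrays were above all others, and the change was called at 12 h (3.84 ± 0.88, adjusted p = 0.0115) and not at 3 h (1.22 ± 0.88) or 72 h (1.80 ± 0.88). Reg3a, from the same family, was well above background on the 12 h arrays alone and at least 1.98-fold higher there than in sham (adjusted p = 0.00443), and with such a floor its change was 0.98, just short of a fold of 2.

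Duox2, Duoxa2 and Fut2 were called at 3 h and 12 h and not at 72 h. Duox2, the dual oxidase of the gut surface, changed by 2.58, 3.51 and 0.83 ± 0.22, and its maturation factor Duoxa2 by 2.61, 2.63 and 1.0 ± 0.29. Fut2, which fucosylates surface glycans, changed by 1.36, 2.09 and -0.78 ± 0.35, and its 3 h call was lost without sham replicate 1 or 2 or 3 h replicate 1 (adjusted p from 0.0708 to 0.0842). Between 12 h and 72 h, 10 of the 20 were called lower and 1 higher. Sprr2h changed by -5.76 ± 0.81 (adjusted p = 0.00147) and Fut2 by -2.87 ± 0.35 (adjusted p = 0.00072) in that interval, and the transcript of Pla2g2a by 2.43 ± 0.54 (adjusted p = 0.0129). Saa3 (4.31, 5.66 and 6.13 ± 0.47) and Nos2 (2.37, 3.42 and 3.85 ± 0.51) were called at all 3 times. At 72 h, 5 of 20 were called higher and 0 lower with the slide as a block. The list shares Lcn2, S100a8 and S100a9 with the IL-17 targets, Socs3 with the list of IL-23 and IL-22 receptor signalling and Il18 with the inducing cytokines. Without S100a8 and S100a9, which are also neutrophil markers, 10, 14 and 6 of 18 were called higher. Only genes shared with that marker list were taken out, so genes that neutrophils or other cells also express, such as Lcn2, may remain. Il22 itself was lower at 72 h than at 12 h, and a link between the cytokine and these genes was not tested.

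**Figure D4:**
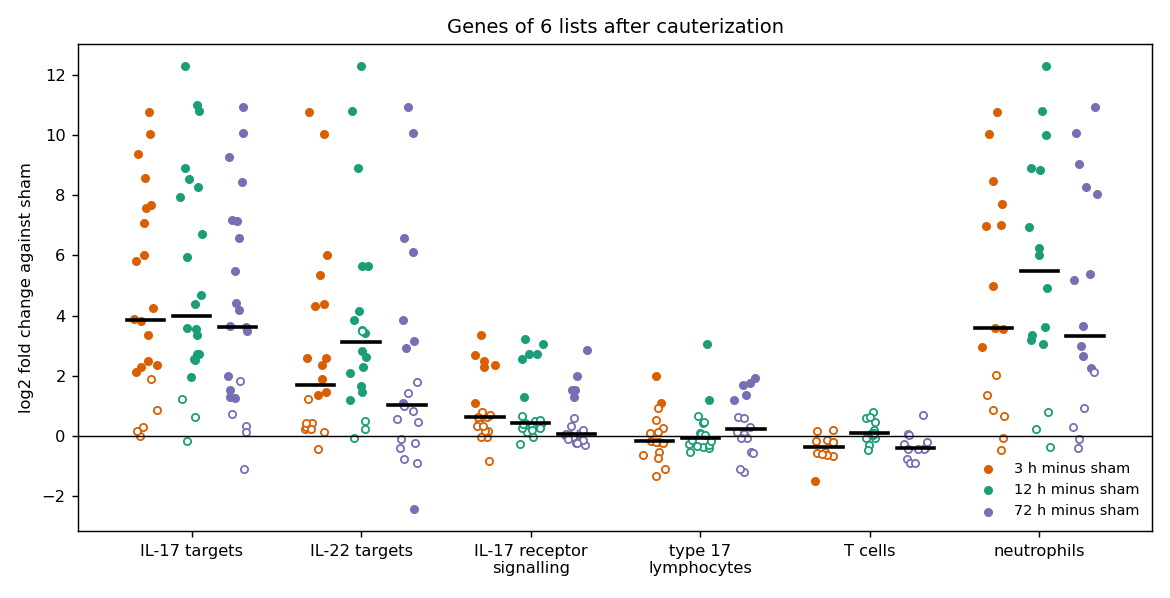
Log2 fold change against sham of each gene in 6 lists at 3, 12 and 72 h; filled points are called by limma (3 arrays per group), and the black line is the list's median. IL-17 targets and neutrophil markers had medians of 3.63 and 3.32 at 72 h, IL-22 targets had their highest median at 12 h (3.11), and T cell and type 17 genes had medians between -0.41 and 0.22.

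For member probes well above background on all arrays, the genes with the most similar profile were sought among 16454 or 16455 other genes so measured. Genes known only by a probe name, a LOC number or a sequence identifier were left out. Likeness was the root mean square difference of centred log2 levels over 12 arrays. Nearest to the second Il22 probe were Hspa1b (0.699), Phox2a (0.729) and Hspa1a (0.856), of which the first and last encode inducible heat shock proteins. Nearest to Il17ra were Rab31 (0.193), Rab8b (0.206) and Snx18 (0.214), genes of vesicle traffic. Nearest to the brightest probe of Il17rc were Immt (0.0523), Uqcrc1 (0.0569) and Atp5g1 (0.0707), genes of mitochondria. Nearest to the brighter probe of Il22ra1 were Stra6 (0.0691), Treml2 (0.0702) and Trpm1 (0.0713). The arrays share groups and scaling, so these values describe likeness of course alone.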

How the data were processed

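Total RNA of the cecum was measured on 12 arrays, and each was assigned to its group by the treatment label. Per the file headers, Feature Extraction 11.5.1.1 gave the deposited intensity of each spot, background-corrected, linear and not scaled between arrays. A second deposited file holds the authors' log2 values, brought to the 75th percentile in GeneSpring GX, and in it each row is centred on its median. Across probes and arrays its Pearson correlation with the values used here was 0.9996.

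For each array the 75th percentile of non-control, non-outlier spots was subtracted from the log2 intensity, after 53 to 152 outlier spots had been removed. Spots of the same probe were averaged. Limma 3.58.1 (R 4.3.3) fitted 4 group means, and p-values were adjusted by Benjamini-Hochberg over 56605 probes. The probe with the highest mean stood for a gene (11876 genes had several), and called genes passed a fold of 2 and an adjusted p of 0.05. In a simulation of the 3 h comparison, with 37074 genes of which 200 were changed, the recovered share was 77.6% for log2 changes of 1.5, 89.6% for 2.5 and 97.0% for 4, and 10 unchanged genes were called. The simulation gave each gene 1 spread for all groups, whereas the SD of Il23a was 0.129 in sham and 1.59 at 3 h. It also changed fewer genes than were called in the data. The shares thus do not give the power for the dim cytokines. Precision is set by the small number of arrays. The paper calls the replicates biological, the labels do not say whether they were operated separately, and p-values measure the spread between these arrays.

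The members, gene lists and tests were chosen with earlier results of these data known, and no list was tested as a set. Members and partners were all to be reported, with up to 5 genes per other list by size of change, those moving against their list, a few defining genes that missed the call, and the genes that check the label of sex. Not all genes that this rule allows are named. Alternatives covered scaling (quantile, other percentile), normexp, the deposited log2 table, outlier spots, dim probes (filter, floor), blocks for slide and for replicate number, eBayes options, pairwise fits, the methods' t-test, probe means and the omission of each array. Fits within each slide were added after seeing the data. Files were read with Python 3.11.15 and the R package data.table (version 1.17.8).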

Additional observations from a re-analysis of the deposited data

Results flagged for a closer look

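Some members of the axis changed between the times after cauterization, by limma's test of the difference itself. Il17a was higher at 72 h than at 3 h by 2.07 on the log2 scale (adjusted p = 0.0439), whereas Il17f was lower, at -2.08 (adjusted p = 0.0255). Il22 was lower at 72 h than at 12 h, at -4.29 (adjusted p = 0.0205), and than at 3 h, at -6.49 (adjusted p = 0.00156), by its first probe. Il17rc was lower at 72 h than at 3 h by its brightest probe, at -1.01 (adjusted p = 0.000686). These comparisons set arrays of the first slide against those of the second, apart from 1 of the 3 arrays at 12 h.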

How the results depend on the processing

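Among 1226 values of the members' changes under alternatives, 1145 kept their status as called or not called, 75 lost the call and 6 gained it. Of changes called in the main fit, 0 reversed. Most of the members' changes were not called in the main fit. Such changes had no call to lose, and their direction was not checked, so the 1145 overstate stability. With normexp, 1 member was called at 3 h and 1 at 12 h (Il22), 1 at 72 h (Il17a), 1 between 3 h and 12 h and 1 between 3 h and 72 h (Il22). With a floor, 2 were called at 3 h. With the slide as a block, 1 was called at 72 h (Il17a), 0 between 12 h and 72 h and 0 between 3 h and 72 h. Quantile normalization left 2 between 3 h and 72 h. The percentile over probes above background called 1 between 3 h and 12 h (Il17ra), as did the first slide alone, and the second slide alone called 0 between 12 h and 72 h, where its 12 h arm is 1 array and the count says nothing about stability, both chosen after seeing the data. Under general statistics the methods name Dunnett's test for more than 3 groups, which was not run here, and Student's paired t-test for 2 groups. The paired t-test called 0 members in these comparisons after adjustment. By it 2, 5 and 5 were at an unadjusted p below 0.05 against sham at the successive times. It matched arrays by replicate number, and with so few pairs a call after adjustment over all probes was unlikely whatever the data. Its count of 0 is therefore no measure of stability. Leaving out 1 array gave 4 to 4 calls at 3 h, 4 to 5 at 12 h, 2 to 4 at 72 h, 0 to 1 between 3 h and 12 h, 0 to 2 between 12 h and 72 h and 2 to 4 between 3 h and 72 h. Replicate numbers do not pair the arrays (6 of 18 correlations of same-numbered deviations above 0.1, range -0.404 to 0.264). The replicate block gave 4, 4 and 3 calls against sham, with Il17f lost at 12 h (adjusted p = 0.0798) and Il17a lost between 3 h and 72 h (adjusted p = 0.0651). Among signals not well above background, Il17b at 72 h (main value 1.16) turned to -0.177 with normexp and -0.124 with a floor, and Il17c at 12 h (main value 1.35) to -0.0466 with normexp. Signal over background limits Il23r and the sham values of Il17a, Il17f and Il23a. The causes of these shifts were not tested.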
